A study of Homo sapiens with 4 samples.

Results

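The oxidative phosphorylation module comprised 111 of the 23364 gene symbols in the 4 count tables. Members were all symbols that begin with NDUFA, NDUFB, NDUFC, NDUFS or NDUFV, UQCR, COX4 to COX8 or ATP5, the 4 SDH subunits, and the MT-ND, MT-CO, MT-CY and MT-ATP genes; pseudogene-type symbols and symbols with a second hyphen were left out. The rule reads symbols alone and uses no measured value. MT-ATP6 and MT-ATP8 were kept although their symbols end in a P and a digit. Mitochondrial DNA encodes 13 of the members and nuclear DNA encodes 98. The nuclear members are 37 subunits and 8 assembly factors of complex I, 4 subunits of complex II, 9 genes of complex III, 18 of complex IV, 19 of complex V and 3 noncoding neighbours that the naming rule also takes in (NDUFB2-AS1, NDUFV2-AS1 and NDUFA6-DT).

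The study profiled single cells of KhES1, an established human embryonic stem cell (hESC) line, and of blastoids, which are aggregates that model the blastocyst. The hESC group (hESC 1 and hESC 2) was grown on Matrigel in mTeSR-1. The blastoid group (blastoid 3 and blastoid 4) was made from the same line: aggregates formed in Aggrewell plates with Y27632 were embedded in a PNIPAAm-PEG hydrogel, kept first in DMEM with FBS and then in iBlastoid medium. All libraries were 10x Genomics 3′ libraries, the whole study rests on 1 cell line, and the labels disagree on the blastoids' day, since titles carry that of the stem cells and table names a later one.

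Oxidative phosphorylation passes electrons from NADH and succinate through complexes I to IV of the inner mitochondrial membrane to oxygen, and complex V, the ATP synthase, uses the resulting proton gradient to make ATP. The core of complex I, cytochrome b, the catalytic centre of complex IV and part of the proton channel of complex V are encoded in mitochondrial DNA, while all of complex II and most accessory subunits are nuclear. Pluripotent stem cells are known for high glycolysis beside respiration, and the transcription factors NRF1, GABP (an ETS factor), YY1 and ERRα are known regulators of nuclear respiratory genes.

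Promoter sequences are shown for 4 nuclear members whose levels differed between the groups, because they show how unlike the start-site sequences of members can be. RefSeq start-site windows (build GRCh38.p14, 250 bases before to 50 from the start, 300 in all) matched 77 of the 95 nuclear members that are not noncoding. Each window was searched on both strands for short cores known for these factors, with the letters CGCANGC (NRF1), CCGGAAG (ETS), ATGGCGG (YY1) and AAGGTCA (ERR, also the half-site of other nuclear receptors). Matches stand in capitals below, in 280 bases ending 30 bases into the gene. SDHD is the membrane anchor of complex II, NDUFB4 and NDUFA9 are accessory subunits of complex I, and ATP5F1E is the epsilon subunit of the ATP synthase; NDUFB4 was chosen after its values were seen.
SDHD, chr11:112086623-112086902, plus strand: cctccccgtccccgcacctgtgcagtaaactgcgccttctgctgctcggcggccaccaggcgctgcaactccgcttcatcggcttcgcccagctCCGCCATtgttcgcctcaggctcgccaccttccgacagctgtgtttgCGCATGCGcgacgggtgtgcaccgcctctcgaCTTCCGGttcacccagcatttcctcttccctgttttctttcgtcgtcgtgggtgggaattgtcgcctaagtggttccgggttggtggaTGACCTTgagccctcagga
NDUFB4, chr3:120596086-120596365, plus strand: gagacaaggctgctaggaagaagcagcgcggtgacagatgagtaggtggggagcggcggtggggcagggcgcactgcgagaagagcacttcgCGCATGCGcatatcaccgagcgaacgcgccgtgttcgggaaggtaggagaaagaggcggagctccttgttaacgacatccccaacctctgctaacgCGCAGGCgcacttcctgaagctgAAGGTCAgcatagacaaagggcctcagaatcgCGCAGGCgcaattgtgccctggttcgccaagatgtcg
NDUFA9, chr12:4648864-4649143, plus strand: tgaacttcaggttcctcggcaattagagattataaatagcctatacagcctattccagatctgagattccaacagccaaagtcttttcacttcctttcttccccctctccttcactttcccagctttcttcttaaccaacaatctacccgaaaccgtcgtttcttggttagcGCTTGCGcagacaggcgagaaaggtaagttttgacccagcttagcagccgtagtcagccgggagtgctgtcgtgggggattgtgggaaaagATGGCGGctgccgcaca
ATP5F1E, chr20:59032306-59032585, minus strand: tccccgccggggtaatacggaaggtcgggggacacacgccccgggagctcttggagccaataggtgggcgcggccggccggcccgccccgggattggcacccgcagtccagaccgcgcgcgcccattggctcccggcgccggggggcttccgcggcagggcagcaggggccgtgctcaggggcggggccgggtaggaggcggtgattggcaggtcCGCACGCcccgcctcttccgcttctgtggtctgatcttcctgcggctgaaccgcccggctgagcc

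SDHD held 6 matches, namely 2 NRF1 matches that share bases, 1 ETS, 1 ERR and 2 YY1, of which 1 YY1 match lies past the printed bases. NDUFB4 held 4 NRF1 matches, 2 of them sharing bases, and 1 ERR match; NDUFA9 held 1 NRF1 and 1 YY1 match, and ATP5F1E held 1 NRF1 match. Over the 77 matched members, 37 (48.1%) held the NRF1 letters, against 20.3% of all 27305 windows. The ETS letters were in 21 (27.3%) against 10.7%, the YY1 letters in 20 (26.0%) against 5.72%, and the ERR letters in 9 (11.7%) against 3.97%. Matches of different motifs shared bases in 0 of the 77 windows. Among members lower in blastoids the NRF1 letters were in 11 of 23, among those higher in blastoids in 3 of 6, and among tested members called in neither direction in 22 of 46. A match is a run of letters and not a measured binding site.

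The tables held 13255214 and 15913590 UMIs (molecules counted once by a molecular tag) in 2238 and 3175 kept hESC cells, and 15106405 and 17679447 in 2278 and 1916 kept blastoid cells. Libraries of a group shared barcodes: 1317 between the hESC samples and 1035 between the blastoid samples, against 6 to 14 between samples of different groups. Of the kept cells, 1311 of hESC 2 and 1015 of blastoid 4 carried a barcode that also occurs in another table, though few were kept in both. One pluripotent-like cluster (cluster 1) had a median of only 1044.5 UMIs and held 421 and 974 hESC cells but 20 and 7 blastoid cells. Results without either set of cells are given where they differ.

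Across whole samples, most of the module's changes were falls. In blastoids, 39 of 108 tested members passed the test (36.1%), with 9 higher and 30 lower. Of all 16332 genes tested, 49.9% passed, 27.1% higher and 22.8% lower, so the members' share called was below the background and their falls outnumbered their rises. The members' median log2 fold change was -0.22 against 0.05 over all genes. Levels did not overlap between the groups for 84 of 108 members, against 78.0% of all genes. The test was edgeR's quasi-likelihood test on UMIs summed per sample, with p adjusted over all genes, and sums over a sample cannot tell fewer cells of a type from less RNA per cell.

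The balance of rises and falls depended on scaling. With scaling by library size alone, which moved the median of all genes from 0.05 to 0.18, 20 members were called higher and 25 lower, and DESeq2 called 9 higher and 30 lower. No member called here changed its sign under either scaling. Both counts also rested on the hESC libraries: 13 members were called without hESC 1 and 16 without hESC 2, against 57 without blastoid 3 and 67 without blastoid 4. The labels name no separate cultures, so the p-values measure the spread between these libraries, which may be technical.

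The makeup of the samples moved with the groups. All 18 mesoderm/mesenchyme markers looked for were higher in both blastoid samples, with a summed level of 110 and 108 CPM (UMIs of a gene per 1000000 of the sample) in hESC 1 and hESC 2 and 4792 and 3513 in blastoid 3 and blastoid 4. The 14 trophectoderm/amnion markers summed to 818 and 798 CPM in hESC samples and to 4172 and 6170 in blastoids, and 13 of them were higher in both blastoids. The 12 pluripotency markers went the other way, with 6611 and 6838 against 1020 and 976. Defining markers such as COL3A1, LUM and GATA3 were at 0 in the hESC samples, and PECAM1 and CDH5 of endothelium were too. Heart and striated muscle markers, looked at because muscle uses its own forms of complex IV, summed to 12.3 and 14.9 CPM against 136 and 147. The part of this makeup in the changes of whole samples was not tested by these sums, and the comparison among pluripotent-like cells stands further on.

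**Figure D1:**
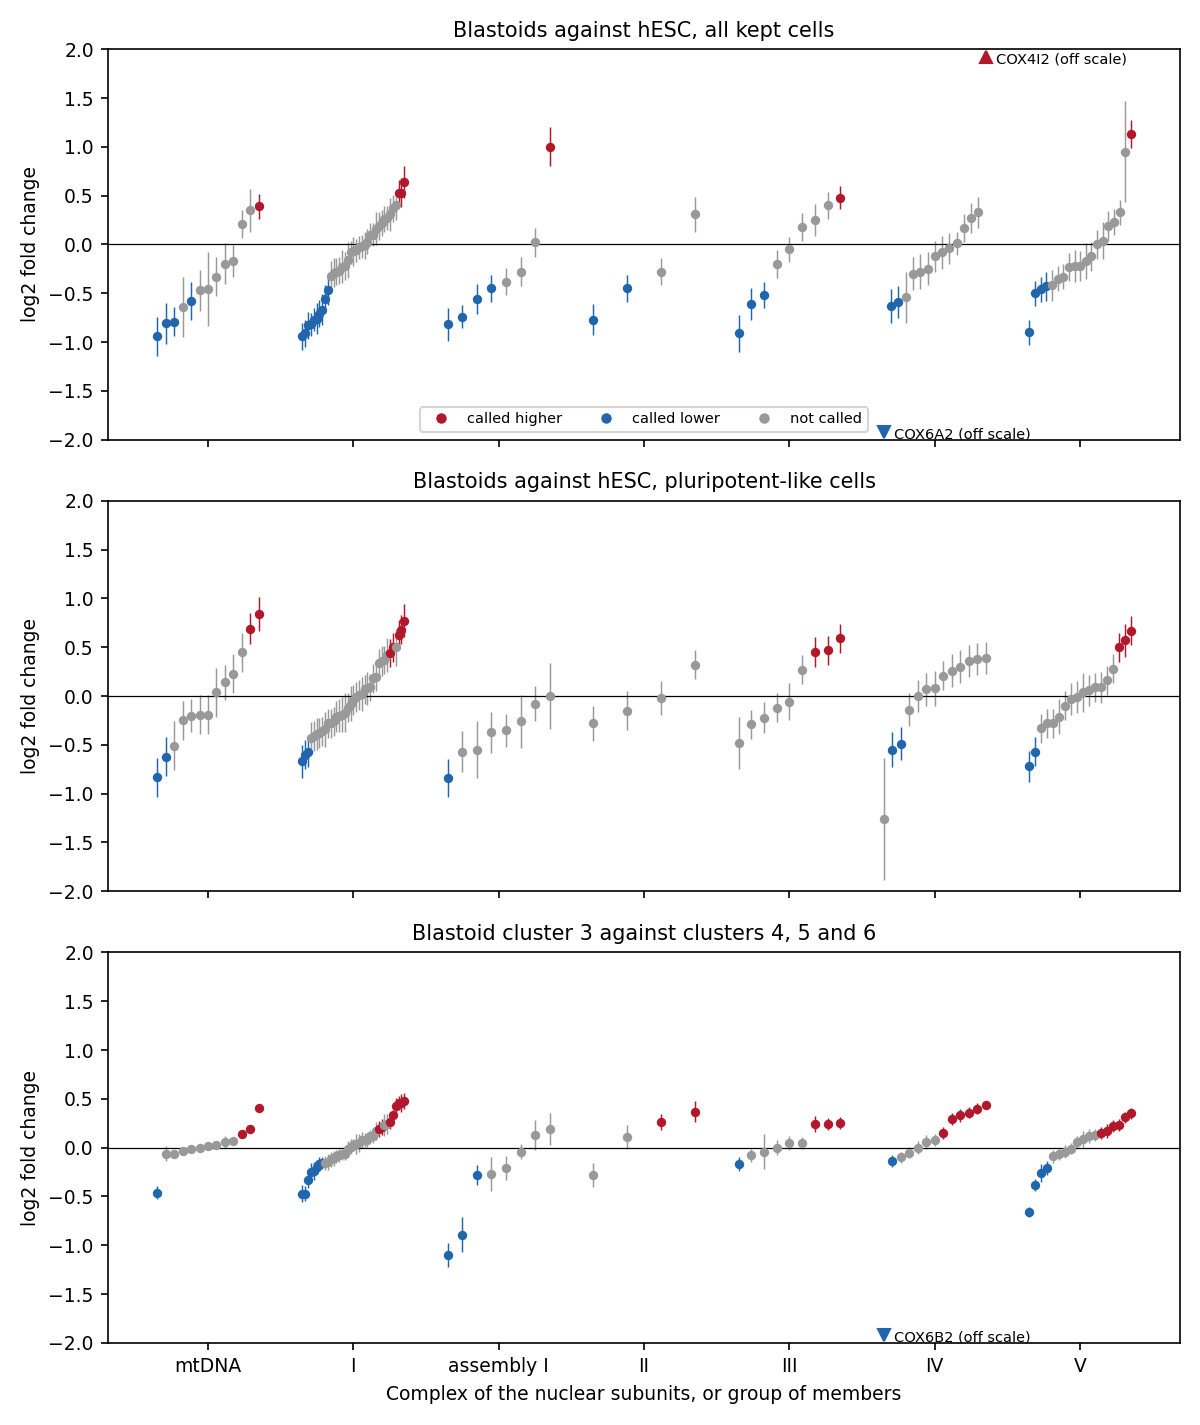
Log2 fold change (vertical axis) of each tested member with its standard error, grouped by complex or role (horizontal axis), in whole samples (top), in pluripotent-like cells (middle) and in cluster 3 against clusters 4, 5 and 6 of the blastoids (bottom). Red and blue points passed the test; triangles mark genes beyond the axis, whose fitted values rest on few UMIs. Whole samples show 9 red and 30 blue members in all, noncoding NDUFA6-DT not drawn.

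The mitochondrially encoded members took a smaller share of UMIs in both blastoid samples. They made up 11.2% of UMIs in hESC 1 and 11.2% in hESC 2, against 8.72% in blastoid 3 and 9.82% in blastoid 4. The groups did not overlap, and the difference of the means was -1.91 percentage points (exact two-sided permutation test, p = 0.333, about the smallest that 2 against 2 allows, 0.33). The deposited tables hold no barcode above 20% mitochondrial UMIs, so these shares are cut off from above. In hESC 1 and hESC 2, 5.85% and 6.9% of cells (131 and 219) had under 1% of UMIs from these genes, against 0.439% and 0.522% in blastoids. Of these hESC cells, 124 and 212 lay in the low-UMI cluster 1, which holds few blastoid cells. In hESC clusters 0 and 2 the share of such cells was 0.19% to 0.64%, near that of the blastoids.

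The nuclear members' share of the other UMIs differed far less. It was 2.82% and 2.77% in hESC 1 and hESC 2, and 2.64% and 2.8% in blastoid 3 and blastoid 4. The groups overlapped, and the difference of -0.08 percentage points had an exact permutation p of 0.667. This sum includes ATP5F1E, with 9301 and 11019 UMIs in hESC 1 and hESC 2 and 27612 and 26913 in blastoid 3 and blastoid 4. A share without ATP5F1E was not computed, so the sum does not show how the other nuclear members moved. The 95 tested nuclear members had a median log2 fold change of -0.2, against 0.05 over all genes. From cell to cell, the share of mitochondrially encoded UMIs and the share of nuclear members had a Spearman coefficient of 0.05 in each sample. This was taken over 1803 to 2202 cells thinned to 2000 UMIs, and both shares of a cell come from the same library and depth. Few of those UMIs come from nuclear members, and counting error weakens such a coefficient. It therefore cannot show whether the shares moved together.

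Within the mitochondrial genome, the members did not move alike. Of 13, 1 rose and 4 fell in blastoids (38.5% called, beside 49.9% of all genes). MT-ATP6, a subunit of the proton channel of complex V (chrM:8527-9207), stood at 18089 and 17388 CPM in hESC 1 and hESC 2 and at 8057 and 10390 in blastoid 3 and blastoid 4. Both blastoid values lay well below both hESC values, 1.92-fold lower on average (log2 fold change -0.94, SE 0.2, adjusted p = 0.00669). MT-ND3, a complex I subunit, fell 1.76-fold, from 13196 and 11455 to 8135 and 5892 CPM (adjusted p = 0.0166). MT-ND2, another membrane subunit of complex I, fell 1.72-fold, from 4322 and 4018 to 2508 and 2330 CPM (adjusted p = 0.00484). MT-CO2, which carries the copper centre that takes electrons from cytochrome c, fell 1.49-fold (adjusted p = 0.0364).

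MT-CO1, the catalytic subunit of complex IV, went against these. It had 11634 and 12241 CPM in hESC 1 and hESC 2 and 12621 and 17914 in blastoid 3 and blastoid 4. Its groups did not overlap, but the difference did not pass the test (log2 fold change 0.35, SE 0.22, adjusted p = 0.211). MT-ND4L, a small membrane subunit of complex I, rose 1.31-fold (587 and 570 to 788 and 727 CPM, adjusted p = 0.0432). The MT-ND4L message shares its transcript and part of its sequence with MT-ND4, and MT-ATP8 overlaps MT-ATP6, so the split of reads within these pairs is uncertain. MT-CO3, MT-CYB, MT-ND1, MT-ND4, MT-ND5, MT-ND6 and MT-ATP8 did not pass, with log2 fold changes from -0.64 (MT-ND6) to 0.21 (MT-ND5). The 5 mitochondrial calls were all lost without hESC 1 and all lost without hESC 2, and under library size scaling 3 members were called higher and 4 lower.

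As shares of the mitochondrially encoded UMIs alone, which take out the total, the makeup differed between the groups for some members and not for others. MT-CO1 made up 9.79% and 10.6% in hESC 1 and hESC 2 and 15.7% and 18.4% in blastoid 3 and blastoid 4. MT-ATP6 made up 15.2% and 15.1% in the hESC samples and 10.0% and 10.6% in the blastoids. MT-ND4L, a small part of the total, went from 0.495% and 0.494% to 0.981% and 0.745%, and MT-ND5 from 1.2% and 1.23% to 1.93% and 1.78%, both without overlap. MT-CO3 kept a similar part of the total, 17.4% and 18.9% against 18.4% and 19.4%, and its groups overlapped. MT-ND3 took 11.1% and 9.92% in hESC 1 and hESC 2, 10.1% in blastoid 3 and 6.04% in blastoid 4, so of the blastoids blastoid 4 alone lay below both hESC values.

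**Figure D2:**
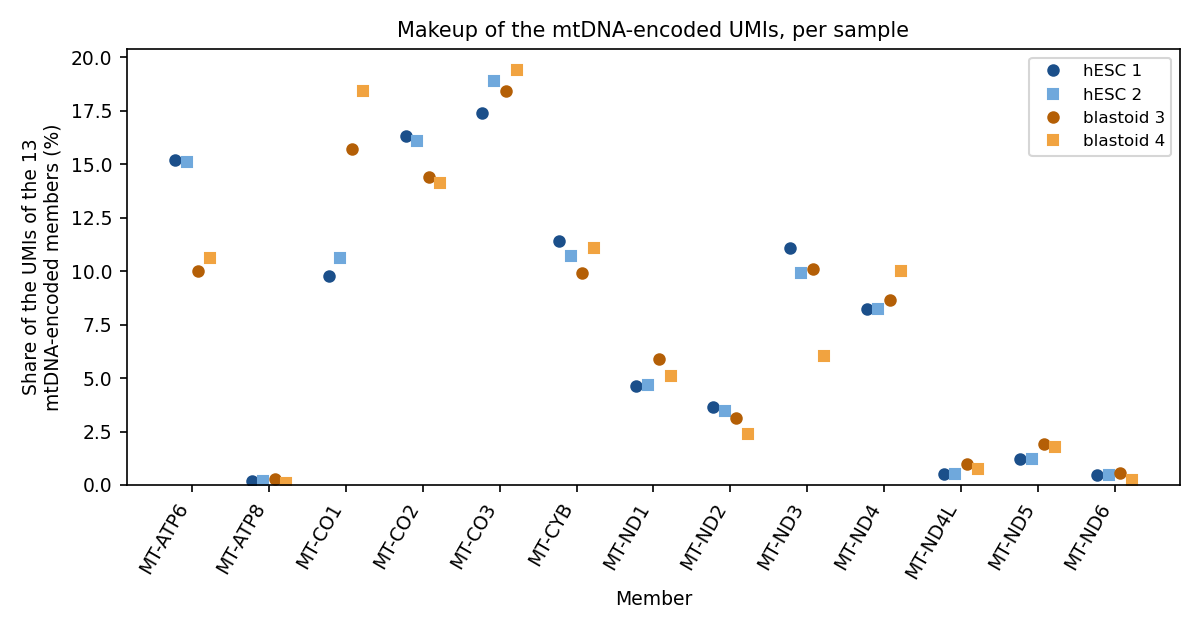
Share of the UMIs of the 13 mitochondrially encoded members taken by each (vertical axis, percent), with 1 point per sample. Blue points are hESC samples and orange points blastoid samples; MT-CO1 sits at 9.79% and 10.6% in hESC and at 15.7% and 18.4% in blastoids, and MT-ATP6 moves from 15.2% and 15.1% down to 10.0% and 10.6%.

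Of the 37 nuclear subunits of complex I, 13 passed (35.1%), 3 higher and 10 lower. The share called was 2 of 4 subunits for complex II, 44.4% for complex III, 26.7% for complex IV and 26.3% for complex V, beside 49.9% of all genes. NDUFV2, a core subunit that carries an iron-sulfur cluster of the NADH-oxidising arm, had 272 and 251 CPM in hESC 1 and hESC 2 and 123 and 149 in blastoid 3 and blastoid 4. The groups were clearly apart, 1.92-fold lower in blastoids (log2 fold change -0.94, SE 0.14, adjusted p = 0.00156). NDUFS6, a zinc-binding accessory subunit of the same arm, fell 1.87-fold, from 456 and 443 to 220 and 260 CPM (adjusted p = 0.00164). NDUFB4, whose promoter is printed above, fell 1.77-fold (adjusted p = 0.00277). In each of these 3, both blastoid values were below both hESC values.

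Other core subunits of complex I did not follow. NDUFS1, the largest subunit of the electron-input arm, had 65.5 and 73.9 CPM in hESC 1 and hESC 2 and 84.5 and 74.4 in blastoid 3 and blastoid 4 (adjusted p = 0.281). NDUFV1, which binds NADH and FMN beside NDUFV2, had 59.3 and 58.7 CPM against 61.4 and 85.3 (adjusted p = 0.166). Of 30 accessory subunits, 11 passed, 3 higher and 8 lower. The 3 that rose were NDUFA9, NDUFA11 and NDUFB3. NDUFA9, an accessory subunit near the quinone site, rose 1.56-fold, from 33.4 and 34.9 to 46.5 and 59.8 CPM (adjusted p = 0.0134). NDUFA11, a membrane subunit, rose 1.44-fold, from 226 and 223 to 301 and 346 CPM (adjusted p = 0.0134), and NDUFB3 rose 1.44-fold (adjusted p = 0.024). The calls of NDUFA9 and NDUFA11 were lost without hESC 1 and without hESC 2, while those of NDUFV2 and NDUFS6 held in each of their 15 alternatives.

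Among the 8 assembly factors of complex I, 1 rose and 4 fell (62.5% called, beside 49.9% of all genes). NDUFAF3 (chr3:49020459-49023495), which helps build the quinone module, had 47.3 and 43 CPM in hESC 1 and hESC 2 and 72.5 and 108 in blastoid 3 and blastoid 4. All blastoid values were above all hESC values, 2.0-fold on average (log2 fold change 1.0, SE 0.2, adjusted p = 0.00513), and the blastoid samples differed between themselves. NDUFAF2, which acts late in assembly, fell 1.67-fold, from 82.4 and 84.2 to 52.2 and 47.4 CPM (adjusted p = 0.00248). NDUFAF4, which works together with NDUFAF3 in assembly, fell 1.47-fold, from 55.8 and 59.9 to 35.1 and 43.4 CPM (adjusted p = 0.0176). Known partners in assembly therefore differed in direction in these sums.

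Complex II, which oxidises succinate and has no mitochondrially encoded part, had 2 of 4 subunits lower and none higher. SDHD had 60.6 and 54.9 CPM in hESC 1 and hESC 2 and 30 and 37.8 in blastoid 3 and blastoid 4, 1.7-fold lower without overlap (adjusted p = 0.00563). SDHB, the iron-sulfur subunit, fell 1.36-fold, from 48.6 and 55.8 to 36.3 and 40.4 CPM (adjusted p = 0.0326), and this call was lost with DESeq2 and with library size scaling. SDHA, the flavoprotein, had 50.7 and 48.9 CPM against 37.5 and 44.7 (adjusted p = 0.141). SDHC, the other membrane anchor and partner of SDHD, had 86.9 and 101 CPM against 97.8 and 135, with overlapping groups (adjusted p = 0.187).

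In complex III, 4 of 9 genes passed, 1 higher and 3 lower. UQCRQ, a small subunit close to cytochrome b, rose 1.39-fold, from 182 and 193 to 259 and 264 CPM (adjusted p = 0.0146). UQCRH, the hinge protein, fell 1.53-fold, from 1055 and 965 to 592 and 733 CPM (adjusted p = 0.0157). UQCRH has a near-identical copy, UQCRHL, which was also called lower, and the split of reads between them is uncertain. UQCRFS1, the Rieske iron-sulfur protein, fell 1.43-fold, from 232 and 229 to 150 and 173 CPM (adjusted p = 0.0141). The core proteins UQCRC1 and UQCRC2 overlapped between the groups, with adjusted p of 0.336 and 0.244.

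Of complex IV, 4 of 15 tested nuclear genes were called, 1 higher and 3 lower. COX7C, a small structural subunit, fell 1.55-fold, from 1908 and 1701 CPM in hESC 1 and hESC 2 to 1028 and 1296 in blastoid 3 and blastoid 4 (adjusted p = 0.0175). COX7A2L, which links complexes III and IV into supercomplexes, fell 1.51-fold, from 237 and 194 to 128 and 158 CPM (adjusted p = 0.0191). The ubiquitous form COX4I1 had 625 and 536 CPM against 654 and 748 (adjusted p = 0.168). COX7A2 had 472 and 436 CPM against 507 and 636 (adjusted p = 0.113), and COX6A1, COX6B1, COX7B, COX8A and NDUFA4 did not pass either, with log2 fold changes from -0.3 (NDUFA4) to 0.01 (COX7B).

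The tissue-restricted forms of complex IV were at a few molecules per library. COX4I2, a form known from lung and smooth muscle that responds to low oxygen, had no UMI in either hESC sample and 14 and 28 UMIs in blastoid 3 and blastoid 4. COX6A2, the heart and skeletal muscle form, had 13 and 17 UMIs in hESC 1 and hESC 2 and none in either blastoid sample. Each of these genes was missing from both tables of 1 group. The filter that left them out is not given in the sources used here. At most 2 UMIs in each were assumed, which gives an upper limit of 9.15 counts over the group. Under that assumption COX4I2 was at least 3.7-fold higher and COX6A2 at least 4.0-fold lower in blastoids. With the missing values set to 0, the edgeR adjusted p were 0.00311 and 0.00167. Of the COX4I2-positive blastoid cells, 11 of 14 cells in blastoid 3 and 21 of 26 in blastoid 4 were in cluster 3, the trophectoderm/amnion-like cluster. That is 2.67% and 3.32% of the cluster's 412 and 633 cells, at median depths of 6199.5 and 9063.0 UMIs. In cluster 6, a mesoderm/mesenchyme-like cluster with medians of 5795.0 and 7754.0 UMIs, 0 of 384 and 1 of 169 cells had such a UMI. Cluster 8, also mesoderm/mesenchyme-like, lay nearer to cluster 3, with 2 of 174 cells (1.15%) in blastoid 3 and 1 of 39 (2.56%) in blastoid 4. With cells thinned to 2000 UMIs the shares in cluster 3 were 0.831% (3 of 361, exact 95% interval 0.172 to 2.41) and 0.486% (3 of 617, 0.1 to 1.41), and in cluster 6 they were 0 of 381, which allows a share of up to 0.787%, and 0.592% (1 of 169). At that depth the clusters could not be told apart.

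COX6B2, the testis form of COX6B1, had 55 and 68 UMIs in the hESC samples and 57 and 46 in blastoids (adjusted p = 0.121). COX7A1 (3 UMIs in hESC 2 and none elsewhere), COX8C (5 in hESC 2, 2 in blastoid 4) and NDUFA4L2 (6, 8, 4 and 3 UMIs in hESC 1, hESC 2, blastoid 3 and blastoid 4) were too low to test. COX7B2 was not analysed here.

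Complex V had 5 of 19 nuclear genes called, 1 higher and 4 lower, and the single rise had the lowest adjusted p of all members. ATP5F1E (chr20:59025467-59032382, minus strand), the epsilon subunit of the rotor, had 745 and 715 CPM in hESC 1 and hESC 2 and 1685 and 1513 in blastoid 3 and blastoid 4. The groups lay far apart, 2.19-fold (log2 fold change 1.13, SE 0.14, adjusted p = 0.00071), and the call held in each of 15 alternatives, with log2 fold changes from 1.06 to 1.27. ATP5IF1, the natural inhibitor of ATP hydrolysis by the enzyme, fell 1.86-fold, from 558 and 523 to 291 and 289 CPM (adjusted p = 0.00119). ATP5PD, a stalk subunit, fell 1.41-fold, from 322 and 318 to 216 and 237 CPM (adjusted p = 0.0142).

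The alpha and beta subunits, which together form the catalytic head, were both lower in blastoids, and only ATP5F1A passed the test. ATP5F1A, the alpha subunit, fell 1.38-fold, from 623 and 621 to 460 and 441 CPM (adjusted p = 0.0196), and this call was lost in 3 of 15 alternatives. ATP5F1B, the beta subunit, had 397 and 427 CPM against 314 and 339, without overlap, and did not pass (adjusted p = 0.0656). Of the 3 genes for the identical ring subunit c, ATP5MC1 fell 1.35-fold at the edge of the threshold (adjusted p = 0.0499), and ATP5MC2 (adjusted p = 0.215) and ATP5MC3 (adjusted p = 0.298) did not pass. The ATP5MC1 call was lost in 7 of 15 alternatives.

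**Figure D3:**
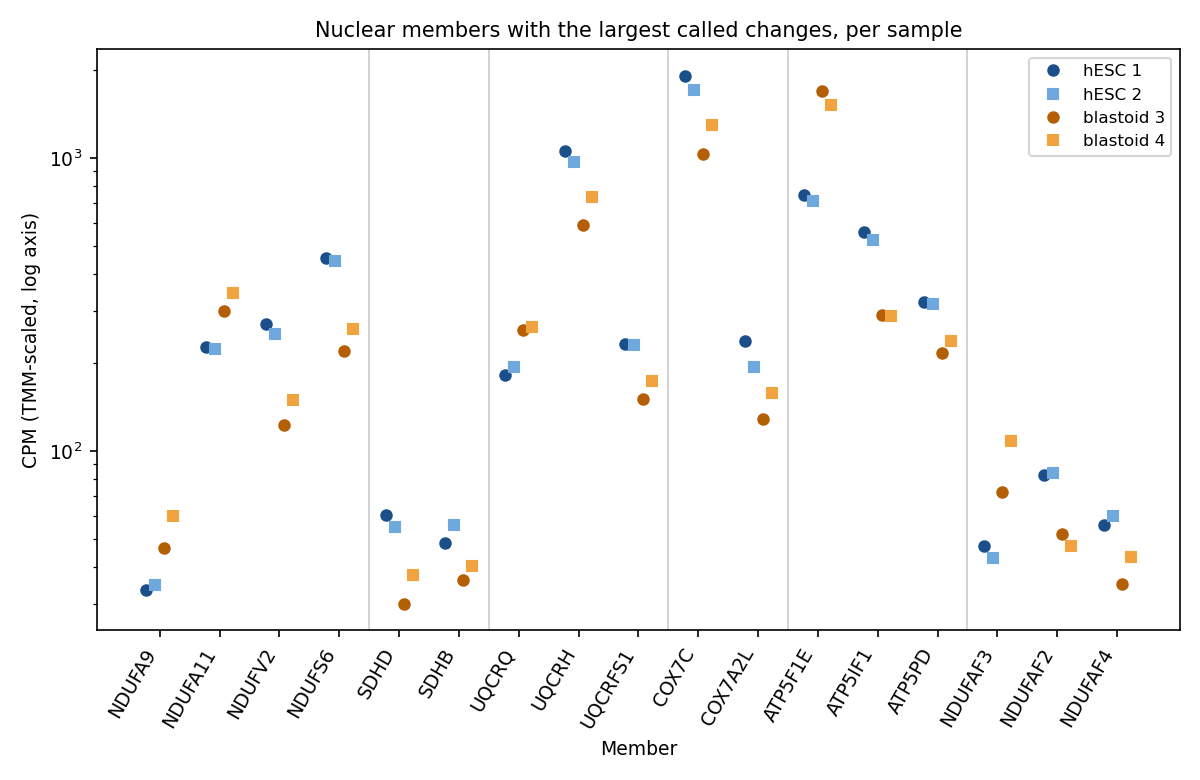
TMM-scaled CPM (vertical log axis) of the nuclear members with the largest called changes, with 1 point per sample, hESC in blue and blastoids in orange, and grey lines between complexes I, II, III, IV, V and assembly factors. ATP5F1E, NDUFAF3, NDUFA9, NDUFA11 and UQCRQ sit higher in blastoids, and the other members drawn sit lower; no member's groups overlap, which the naming rule required.

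Genes for mitochondrial DNA expression and for the mitochondrial ribosome, which are no members, mostly fell where they were called. Of 18 genes of mitochondrial biogenesis and mitochondrial DNA expression, 0 rose and 9 fell by edgeR, 6 fell by DESeq2 and 5 by library size scaling. The number called by edgeR was at the background share of 49.9% for either direction, and of all genes 22.8% were called lower. ESRRA, which encodes ERRα, fell 2.11-fold, from 22.6 and 22 to 11.3 and 9.84 CPM (adjusted p = 0.00125), and SLIRP, which stabilises mitochondrial messages, fell 1.88-fold (adjusted p = 0.00128). PPARGC1A, the coactivator PGC-1α, was under 2 CPM in each sample and did not pass (adjusted p = 0.232). Of 78 mitochondrial ribosomal protein genes, 7 rose and 38 fell, with a median of -0.38, and library size scaling gave 8 and 28. Of 36 tested assembly factors of complexes II to V, 5 rose and 13 fell.

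Entry of fuel into the chain was mixed. Of 19 genes of the citric acid cycle and pyruvate entry, 3 rose and 4 fell (3 and 2 with DESeq2 and with library size scaling). Of all genes tested, edgeR called 49.9%, with 27.1% higher and 22.8% lower. SUCLG1, the alpha subunit of succinyl-CoA ligase, rose 2.82-fold, from 49 and 43.7 to 131 and 130 CPM (adjusted p = 0.000126), while its GTP-specific partner SUCLG2 fell 2.18-fold (adjusted p = 0.00102). Both mitochondrial pyruvate carrier genes rose, MPC1 2.29-fold (adjusted p = 0.000734) and MPC2 1.66-fold (adjusted p = 0.00749). Cytochrome c, CYCS, which carries electrons from complex III to IV, fell 1.62-fold (adjusted p = 0.00403), and CYC1 did not pass (adjusted p = 0.142). A further list held membrane carriers, lactate dehydrogenases and pyruvate dehydrogenase kinases, among others. Of its 11 tested genes, 2 rose and 4 fell, among the latter the ADP/ATP carriers SLC25A4 and SLC25A5.

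Pluripotent-like cells were then compared alone, to ask which changes were also seen among cells of the stem cells' own class. In hESC samples these were all 2238 and 3175 kept cells (clusters 0, 1 and 2), and in blastoids 105 and 111 cells, of which 85 and 104 lay in cluster 9. Different clusters therefore hold the class in the 2 groups, and cluster 9 had 11 of 12 pluripotency markers but also 12 of 14 trophectoderm/amnion markers in at least 10% of its cells. Of 103 tested members, 23 passed (22.3%), 13 higher and 10 lower, against 23.6% of all 14033 genes (12.8% higher and 10.7% lower). Levels did not overlap between the groups for 68 members, against 64.5% of all genes. Library size scaling gave 22 higher and 10 lower, and 0 members passed with edgeR without hESC 1 or without hESC 2 (11 and 17 at an unadjusted p under 0.05), while DESeq2 on all 4 samples called 18. Without cells of shared barcodes, 12 were higher and 29 lower. The comparison uses the same hESC samples as that of whole samples, so both sets of values are given side by side and not as separate evidence.

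Several members were called with the same direction here. MT-ATP6 had 17949 and 17059 CPM in pluripotent-like cells of hESC 1 and hESC 2 and 8712 and 10999 in those of blastoid 3 and blastoid 4 (log2 fold change -0.83, SE 0.2, adjusted p = 0.00861; -0.94 in whole samples). NDUFAF2 had 81.7 and 82.6 CPM against 34.8 and 54, without overlap (log2 fold change -0.84, adjusted p = 0.00555; -0.74 in whole samples). NDUFS6 (-0.6, adjusted p = 0.00983; -0.91 in whole samples) and ATP5IF1 (-0.57, adjusted p = 0.0148; -0.9 in whole samples) also fell. NDUFA9 rose here as well (0.77, adjusted p = 0.00409; 0.64 in whole samples), a call lost with DESeq2 (adjusted p = 0.057). MT-ND4L rose too (0.84, adjusted p = 0.00245; 0.39 in whole samples).

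Other members differed from their values in whole samples. ATP5PD had 319 and 312 CPM in pluripotent-like hESC cells and 494 and 510 in those of blastoids, 1.59-fold higher (log2 fold change 0.67, SE 0.15, adjusted p = 0.00432), while over whole samples it was lower (-0.5). ATP5F1E did not differ detectably among pluripotent-like cells, with 739 and 701 CPM in hESC 1 and hESC 2 and 786 and 651 in blastoid 3 and blastoid 4 (-0.01, SE 0.16, adjusted p = 0.98), against 1.13 in whole samples. NDUFAF3 was lower without overlap, at 46.9 and 42.2 against 23.2 and 34.8 CPM, but did not pass (-0.57, SE 0.21, adjusted p = 0.0647), against 1.0 in whole samples. NDUFV2 had 270 and 247 CPM against 162 and 240 and did not pass (-0.34, adjusted p = 0.181). The difference between the comparisons was not tested, and the blastoid sums rest on 806753 and 1366776 UMIs.

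Some members that missed the threshold in whole samples rose in pluripotent-like cells. NDUFV1 had 58.8 and 57.6 CPM in hESC 1 and hESC 2 and 85.9 and 98.5 in blastoid 3 and blastoid 4 (0.68, adjusted p = 0.00527). MT-ND5, a proton-pumping subunit of complex I, had 1409 and 1391 CPM against 2168 and 2344 (0.69, adjusted p = 0.00714). The core proteins of complex III rose too, UQCRC1 1.51-fold (adjusted p = 0.012) and UQCRC2 1.38-fold (adjusted p = 0.0381), but the call of UQCRC2 was lost with DESeq2 (adjusted p = 0.212). ATP5MC2, the ring subunit gene that did not pass in whole samples, fell 1.64-fold (adjusted p = 0.006). No subunit of complex II passed.

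**Figure D4:**
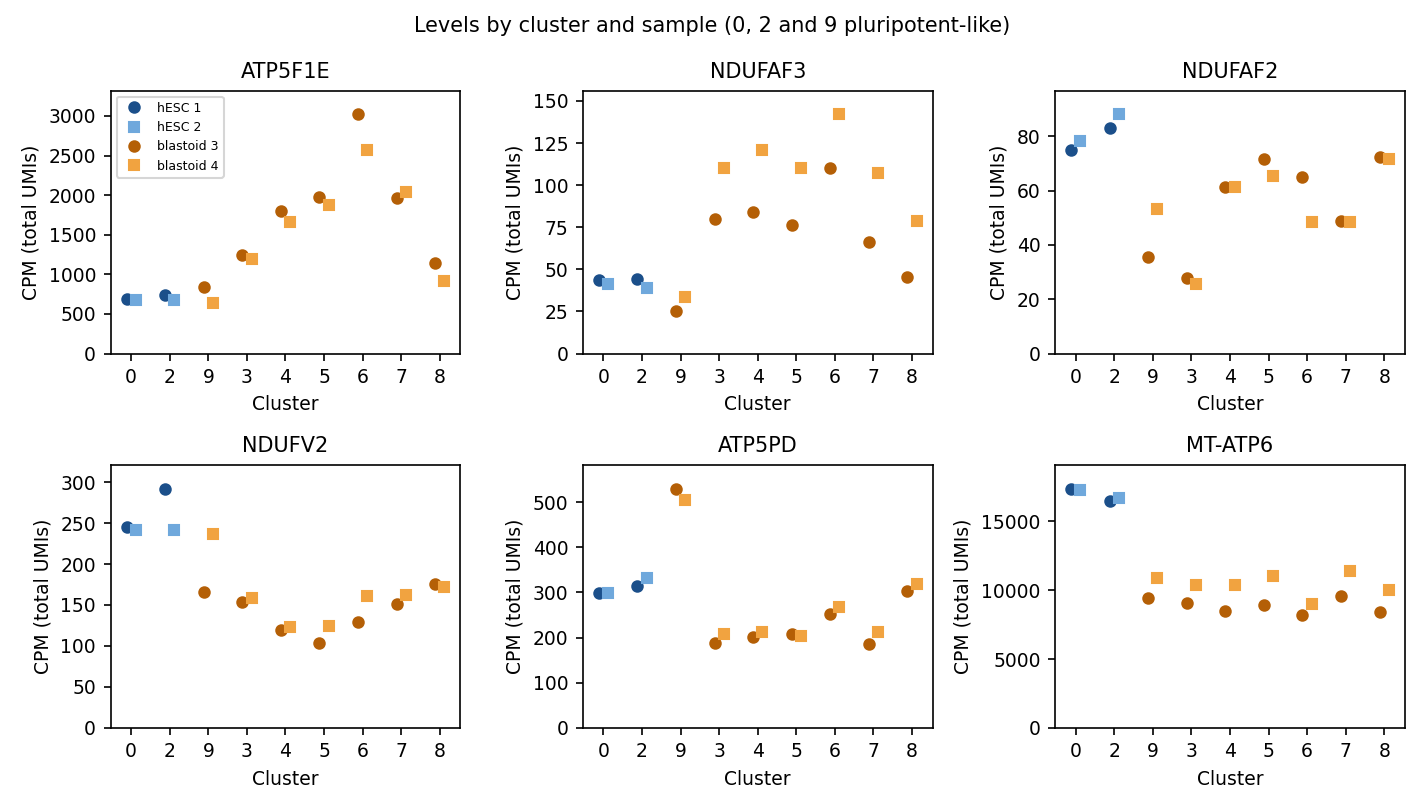
CPM of total UMIs (vertical axis, from 0) of 6 members in each cluster (horizontal axis) and sample, hESC in blue and blastoids in orange. ATP5F1E climbs from 641 in the pluripotent-like blastoid cluster 9 to 3019 in cluster 6, ATP5PD is highest in cluster 9, and MT-ATP6 is lower in each blastoid cluster drawn than in hESC clusters 0 and 2.

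The levels of ATP5F1E by cluster put the largest values in mesenchymal cells. In cluster 9 of blastoid 3 and blastoid 4, ATP5F1E had 835 and 641 CPM, next to 678 to 734 in hESC clusters 0 and 2. Cluster 3 had 1244 and 1189 CPM, cluster 4 had 1803 and 1662, cluster 5 had 1980 and 1877, and cluster 6, whose leading genes include the matrix genes POSTN, DCN and MGP, had 3019 and 2569. Cluster 8, whose leading genes include the early mesoderm genes MESP1 and MIXL1, had 1143 and 922 CPM. Cluster 7 had 1962 and 2042 CPM, below cluster 5 in blastoid 3 and above it in blastoid 4, while the order of the other clusters (9, 8, 3, 4, 5 and 6) was the same in both samples. Clusters 3 and 8 lay close, at 1244 against 1143 in blastoid 3.

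MT-ATP6 showed another pattern, nearly flat over the blastoid clusters. It had 16491 to 17375 CPM in hESC clusters 0 and 2, and 8212 (cluster 6 of blastoid 3) to 11386 (cluster 7 of blastoid 4) in blastoid clusters 3 to 9. NDUFAF3 stood at 25.5 and 33.3 CPM in cluster 9 and at 45.4 to 142 in clusters 3 to 8, and its value in blastoid 4 was above that in blastoid 3 in each of these clusters. ATP5PD had 530 and 504 CPM in cluster 9 and 186 to 319 in clusters 3 to 8. NDUFAF2 was lowest in cluster 3, at 27.7 and 25.8 CPM, against 48.4 to 72.4 in clusters 4 to 8.

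**Figure D5:**
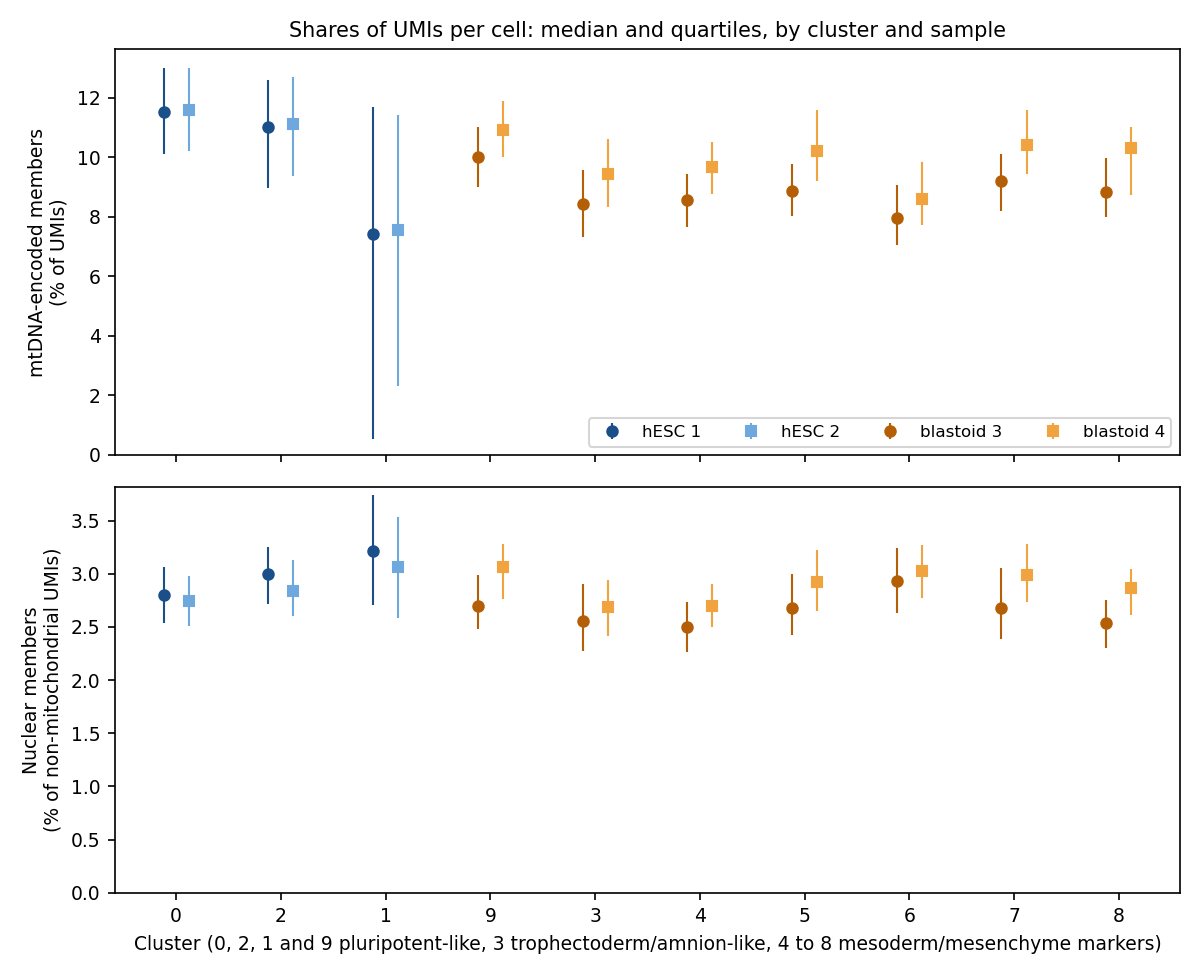
Share of a cell's UMIs from the mitochondrially encoded members (top, percent of all UMIs) and from the nuclear members (bottom, percent of non-mitochondrial UMIs), by cluster and sample; points are medians over cells and bars run from the lower to the upper quartile, for groups of at least 30 cells. Cluster 1, the low-UMI cluster, has the widest spread of the mitochondrial share, and cluster 6 has the lowest mitochondrial share of the blastoid clusters drawn.

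By cluster, the mitochondrial and nuclear shares were ordered differently. Cluster 6 had the lowest mitochondrially encoded share of the blastoid clusters 3 to 9, 8.01% in blastoid 3 and 8.72% in blastoid 4, while its nuclear share, 2.9% and 3.03%, was the highest of these clusters in blastoid 3 and next to the highest in blastoid 4. The nuclear share includes ATP5F1E, which had 3019 and 2569 CPM in cluster 6 and 835 and 641 in cluster 9. The order of the clusters without ATP5F1E was not computed. Cluster 9 had 10.3% and 11.1% from mitochondrially encoded members, the highest of clusters 3 to 9 in both samples. Its nuclear share was 2.77% and 3.04%. Blastoid 4 had more than blastoid 3 in both shares in each of the clusters 3 to 9. The low-UMI cluster 1 of hESC cells had 7.26% and 7.4%, against 10.8% to 11.6% in clusters 0 and 2, and a nuclear share of 3.25% and 3.1%.

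Within the blastoids, cluster 3 was compared with the mean of clusters 4, 5 and 6, with the sample as a block. Clusters are named by number here because cluster 7, which scored as mesoderm/mesenchyme, had more leading genes of another marker list (MYL7, of heart muscle) than of its own. The clusters were made without the members and without other mitochondrial genes. Of 103 tested members, 47 passed (45.6%), 28 higher and 19 lower in cluster 3, against 54.7% of all 13325 genes (28.4% higher and 26.4% lower). Library size scaling, which moved the median of all genes from -0.01 to -0.14, gave 13 higher and 42 lower, so the direction of small changes depended on scaling; no called member changed the sign of its fold change. Without the replicate block, 15 passed, and the genes named below were chosen after their values were seen.

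The largest differences in cluster 3 were falls. NDUFAF2 was 2.15-fold lower in cluster 3 (log2 fold change -1.1, SE 0.12, adjusted p = 1.79e-09). NDUFAF5, another assembly factor of complex I, was 1.85-fold lower (adjusted p = 9.95e-05), at 10.4 and 8.07 CPM against 15.0 to 23.1 in clusters 4, 5 and 6 of both samples. ATP5F1E was 1.59-fold lower (adjusted p = 2.47e-14). COX6B2 had 2 UMIs in cluster 3 of each sample, against 47 and 38 in clusters 4, 5 and 6 of blastoid 3 and blastoid 4. Its level in cluster 3 was 0.143 times that of the others in blastoid 3 (95% exact interval 0.0168 to 0.545, counting error only) and 0.0762 times in blastoid 4 (0.0089 to 0.295). NDUFS1 was 1.38-fold lower (adjusted p = 6.32e-05), at 60.8 and 58.9 CPM against 83.5 to 103.

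Most complex IV subunits that passed were higher in cluster 3: 6 of 13 tested rose and 2 fell. The share of nuclear subunits called was 61.5% for complex IV, 43.2% for complex I and 55.6% for complex V. Of all genes, 54.7% were called (28.4% higher and 26.4% lower). COX7C was 1.36-fold higher (adjusted p = 1.39e-12), at 1387 and 1450 CPM in cluster 3 of blastoid 3 and blastoid 4 against 984 to 1305 in clusters 4, 5 and 6. COX4I1 was 1.29-fold higher (adjusted p = 1.04e-06), and COX5B, a zinc-binding subunit, was 1.32-fold higher (adjusted p = 2.03e-06). MT-CO1 was 1.33-fold higher (adjusted p = 3.74e-13), with 15556 CPM in blastoid 3 against 12306 to 13432, and 20267 in blastoid 4 against 15739 to 17370. Of complex I, 8 subunits rose and 8 fell, with NDUFS4, NDUFA3 and NDUFC1 the highest (1.4-fold, 1.37-fold and 1.37-fold). NDUFV2, lower in whole blastoid samples, was 1.35-fold higher in cluster 3 than in clusters 4, 5 and 6 (adjusted p = 2.39e-05), at 154 and 158 CPM against 104 to 161. Of complex V, 6 rose and 4 fell, all but ATP5F1E by less than 1.4-fold. Library size scaling gave 5 complex IV members higher and 4 lower, 5 complex I members higher and 16 lower, and 2 complex V members higher and 7 lower.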

How the data were processed

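Per sample, the deposited data are 1 table of raw UMI counts, with symbols by barcodes, made by the authors. Cell Ranger and GRCh38 are named per the submitters' processing notes; versions, annotation and filters are not given in the sources used here. The tables hold barcodes of at least 201 and at most 4994 genes. Groups came from the sample descriptions, and members and lists were chosen with earlier results of these data known.

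Cells with at least 500 genes were kept, except 73 of 9680 called doublets by Scrublet in scanpy 1.11.5 (0.75%, expected rate 6%). Such a low share leaves doublets of like cells in the data, and 9607 cells remained. Cells of all samples were clustered on 2000 variable genes without the members or other mitochondrial genes (30 principal components, 15 neighbours, Leiden resolution 0.5, leidenalg 0.10.2). A cluster took the class with the highest share of its marker list detected (each in at least 10% of the cells), at least 3 markers needed; names rebuilt in this way may differ from the study's. Results with cells of the low-UMI cluster or of shared barcodes left out were chosen after seeing the data.

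UMIs were summed per sample, or per cluster and sample with at least 50 cells, and all genes were tested with edgeR 4.0.16 (quasi-likelihood, TMM, filterByExpr, Benjamini-Hochberg over all genes), called at an adjusted p under 0.05; the fit was tested on simulated data. A standard error is the log2 fold change divided by the root of F. CPM of whole samples and of pluripotent-like cells are TMM-scaled, those of clusters and marker lists are per total UMIs. Genes without a line in a sample's table were set to 0 UMIs in that sample. Shares were compared with exact permutation tests, and intervals are Clopper-Pearson at 95%, covering counting error only. Alternatives were DESeq2 1.42.0, other scaling, filters, cells, depth, clustering and leaving out each sample.

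Named were all mitochondrially encoded members, isoform pairs, catalytic subunits, and per complex and among assembly factors the 2 largest rises and falls among called members whose mean log2 CPM reached 5 and whose groups did not overlap; others are said to be chosen after their values were seen, as were genes named from the other lists, NDUFB3, UQCRHL and, among pluripotent-like cells, members outside this rule. Gene positions are from GENCODE on GRCh38 and promoters from RefSeq; the motif letters are short cores, chosen after longer forms had been searched. The values of 1 member are not reported here.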

Additional observations from a re-analysis of the deposited data

How the results depend on the processing

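For whole samples, the count of 39 called members ranged from 13 (without hESC 1) to 67 (without blastoid 4) when 1 library was left out, and a fold past 2 as well left 5. For pluripotent-like cells, 23 members became 0 to 33 when 1 library was left out, 14 with sums thinned to the smallest and 41 without shared barcodes, the last chosen after seeing the data. A fit with 1 library in a group takes its spread from the other group. In cluster 3 against clusters 4, 5 and 6, 47 became 15 with no replicate block; leaving out a sample there was not run, because 1 sum per cluster leaves no residual degrees of freedom. Asking for a log2 fold change past 1 as well left 0 of the 23 members called by edgeR in pluripotent-like cells and 2 of the 47 in cluster 3. The other alternatives run moved these counts by less than 1.5 times. The nuclear members' share difference of -0.08 reversed to 0.01 without blastoid 3, in a range from -0.16 (without blastoid 4) to 0.01. No paired analysis was possible because hESC and blastoid samples share no replicate number. Of 27 named members called in whole samples, 9 kept their call in every alternative run on them, among them ATP5F1E, ATP5IF1, COX4I2, COX6A2, NDUFAF2, NDUFAF3, NDUFS6 and NDUFV2. None of the 27 changed sign, and the calls of the other 18 were lost in 1 to 7 alternatives. Where calls were lost or counts moved, the cause was not tested. Low members such as COX4I2 and COX6A2 rest on under 30 UMIs a library, which limits what depth can show.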

Other observations

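Assembly factors of the other complexes, which the report gives only as counts, included genes called in both directions. SDHAF4, which helps the flavoprotein of complex II mature, had 30 and 28.8 CPM in hESC 1 and hESC 2 and 12.5 and 11.4 in blastoid 3 and blastoid 4 (2.47-fold lower, edgeR adjusted p = 0.000409), and SDHAF3 was 1.42-fold lower (adjusted p = 0.0164). BCS1L, which inserts the Rieske protein UQCRFS1 into complex III, was higher in blastoids, going from 7.45 and 7.07 to 13.9 and 15.9 CPM (2.05-fold higher, adjusted p = 0.00239), while UQCRFS1 itself fell 1.43-fold. COA6 and COX17, copper-handling factors of complex IV, were 1.88-fold and 1.63-fold lower (adjusted p of 0.000942 and 0.00322). LDHB, the lactate dehydrogenase form that favours lactate oxidation, fell 1.79-fold, from 1575 and 1685 to 877 and 946 CPM (adjusted p = 0.00251), and LDHA overlapped between the groups (adjusted p = 0.178). These genes were chosen after their values were seen.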
